A study of Rattus norvegicus with 8 samples.

Results

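The MHC class II genes were followed in glomerular RNA of Dahl salt-sensitive rats (Dahl) and spontaneously hypertensive rats (SHR). The set held 8 genes, RT1-Ba, RT1-Bb, RT1-Da, RT1-Db1, RT1-DMa, RT1-DMb, Cd74 and Ciita, of 14217 genes that the array measured with a probe set of their own. Every probe set annotated to these symbols was taken, 14 of 31042, and the brightest on average stood for its gene. The genes had been chosen on the difference between the strains in these same arrays, so the strain differences of the 8 genes are given as a description, with no test. The rats were male and received a low-salt diet. Dahl rats develop proteinuria, SHR rats served as the non-proteinuric comparison, and the labels name no transgene for either strain. Glomeruli came from rats aged 4 or 6 weeks. The paper reports similar hypertension in both strains, with an onset later than either of these ages. It places the onset of proteinuria in Dahl rats at the older age, so the younger Dahl rats were sampled before it. Each of the 4 groups held 2 rats, each labelled as a biological replicate on its own Affymetrix rat genome array. A difference between the strains is therefore a difference between inbred genomes as well as between disease models, and the design cannot tell them apart.

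MHC class II molecules are pairs of an alpha and a beta chain that hold peptides from ingested protein on the cell surface for CD4+ T cells. In the rat the RT1-B chains correspond to human DQ and the RT1-D chains to human DR, and the genes differ in sequence between rat strains. Cd74, the invariant chain, blocks the groove of newly made class II molecules, and the RT1-DM pair exchanges its remnant for peptide in the endosome. Ciita is the coactivator on which transcription of the whole set depends, and it acts through RFX, CREB and NF-Y proteins bound to the X and Y boxes of the promoters. Dendritic cells, macrophages and B cells carry these molecules at rest, and interferon gamma can switch them on in other cells, glomerular cells included.

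To show what the genes share in sequence, the 100 bases from 120 to 21 bases before the start of each gene were taken from the RefSeq promoters of the GRCr8 rat assembly, which held 6 of the 8 genes. Each is written 5′ to 3′ on the strand of its gene. Capitals mark the letters ACNGATG, a part of the X box, and TGATTGG, the core of the Y box. Both were searched on either strand and chosen after the sequences had been read.
RT1-Ba: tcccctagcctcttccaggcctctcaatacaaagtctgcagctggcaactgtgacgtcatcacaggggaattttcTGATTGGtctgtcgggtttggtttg
RT1-Bb: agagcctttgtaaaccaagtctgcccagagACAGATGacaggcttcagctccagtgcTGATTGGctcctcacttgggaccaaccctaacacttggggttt
RT1-Da: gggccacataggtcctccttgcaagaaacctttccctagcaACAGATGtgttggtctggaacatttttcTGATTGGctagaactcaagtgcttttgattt
RT1-Db1: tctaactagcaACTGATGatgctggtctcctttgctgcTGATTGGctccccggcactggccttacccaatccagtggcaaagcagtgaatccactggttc
RT1-DMa: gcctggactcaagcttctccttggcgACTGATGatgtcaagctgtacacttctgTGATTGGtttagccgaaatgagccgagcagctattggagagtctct
Cd74: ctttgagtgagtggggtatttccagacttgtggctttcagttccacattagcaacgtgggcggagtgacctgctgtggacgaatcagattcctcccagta
The RT1 windows lie on chromosome 20, at chr20:4576937-4577036 (plus strand) for RT1-Ba, chr20:4604139-4604238 (minus) for RT1-Bb, chr20:4515295-4515394 (plus) for RT1-Da, chr20:4560183-4560282 (minus) for RT1-Db1 and chr20:4712356-4712455 (minus) for RT1-DMa. The Cd74 window is chr18:56527086-56527185 (plus).

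ACNGATG followed within 40 bases by TGATTGG, on the strand of the gene, stood in 4 of the 6 windows, those of RT1-Bb, RT1-Da, RT1-Db1 and RT1-DMa. The 2 motifs were 20 bases apart in RT1-Bb and RT1-Db1 and 21 bases apart in RT1-Da and RT1-DMa. RT1-Ba held TGATTGG without ACNGATG, and neither string was found in the Cd74 window. Among 33469 RefSeq promoters of 250 bases before to 50 bases after the start, 10.2% held ACNGATG, 7.06% held TGATTGG and 0.0299% held the pair in this order and distance. These 10 promoters also included those of the class II genes RT1-Db2 and RT1-DOb and of 4 genes that are not class II, Tdo2, Ehd4, Hsd17b7 and G3bp2. A match describes letters only, and a missing string does not show that the box is absent. RT1-DMb and Ciita are named here without a sequence.

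The 8 arrays had similar overall brightness, with a median log2 intensity between 4.11 and 4.16. Podocyte markers lay high on every array, and Nphs1, which encodes the slit diaphragm protein nephrin, ran from 11.84 to 12.65. Tubule markers were also bright, with the proximal tubule phosphate transporter Slc34a1 between 12.15 and 13.79, so tubular transcripts were present in the RNA. The summed linear intensity of the 6 tubule markers was 10881 to 21694 in 6-week-old Dahl rats and 20578 to 29072 elsewhere, with replicate 2 of the 6-week-old Dahl rats the lowest. Over all probe sets 3283 were higher and 7504 lower in Dahl than in SHR at an adjusted p under 0.05 by limma, against 2261 and 2479 after quantile normalization. The median probe set lay 0.05 below 0 on the log2 scale.

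The RT1-B chains showed the widest gap between the strains among the 8 genes. RT1-Bb, the beta chain, read 10.21 and 9.55 in 4-week-old Dahl rats and 10.61 and 10.42 in 6-week-old Dahl rats, in log2 intensity. In SHR rats it read 2.42 and 2.48 at 4 weeks and 2.10 and 3.30 at 6 weeks. Every Dahl rat was thus far above every SHR rat, and the SHR values fell between the 6.33 and 40.2 percentiles of all probe sets on their array, where a weak signal and none cannot be told apart in these files. The measured difference was 7.62 ± 0.31 (SE, 4 Dahl against 4 SHR rats), 7.43 at 4 weeks and 7.81 at 6 weeks. It is a lower bound only if the SHR values are background and the probe set reads both strains alike, which was not tested. In RNA of a whole tissue, fewer cells that make a transcript and less transcript per cell cannot be told apart, and this holds for every difference below.

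RT1-Ba, the alpha partner of RT1-Bb, read 8.15 and 8.13 in 4-week-old and 8.90 and 9.29 in 6-week-old Dahl rats with its main probe set, 1370822_at. In SHR rats the same probe set read 2.51 and 2.53 at 4 weeks and 3.58 and 2.85 at 6 weeks. The strains did not overlap, and the measured difference was 5.75 ± 0.19 (SE), with 5.62 at 4 weeks and 5.88 at 6 weeks. The SHR values lay between the 21.3 and 44.5 percentiles of their arrays, so the same limits hold here. A second probe set of this gene, given below, read higher in SHR rats. Of the 8 genes, RT1-Ba and RT1-Bb were the 2 whose 4 Dahl values all lay above the 4 SHR values, a pattern found in 8.15% of all probe sets.

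**Figure D1:**
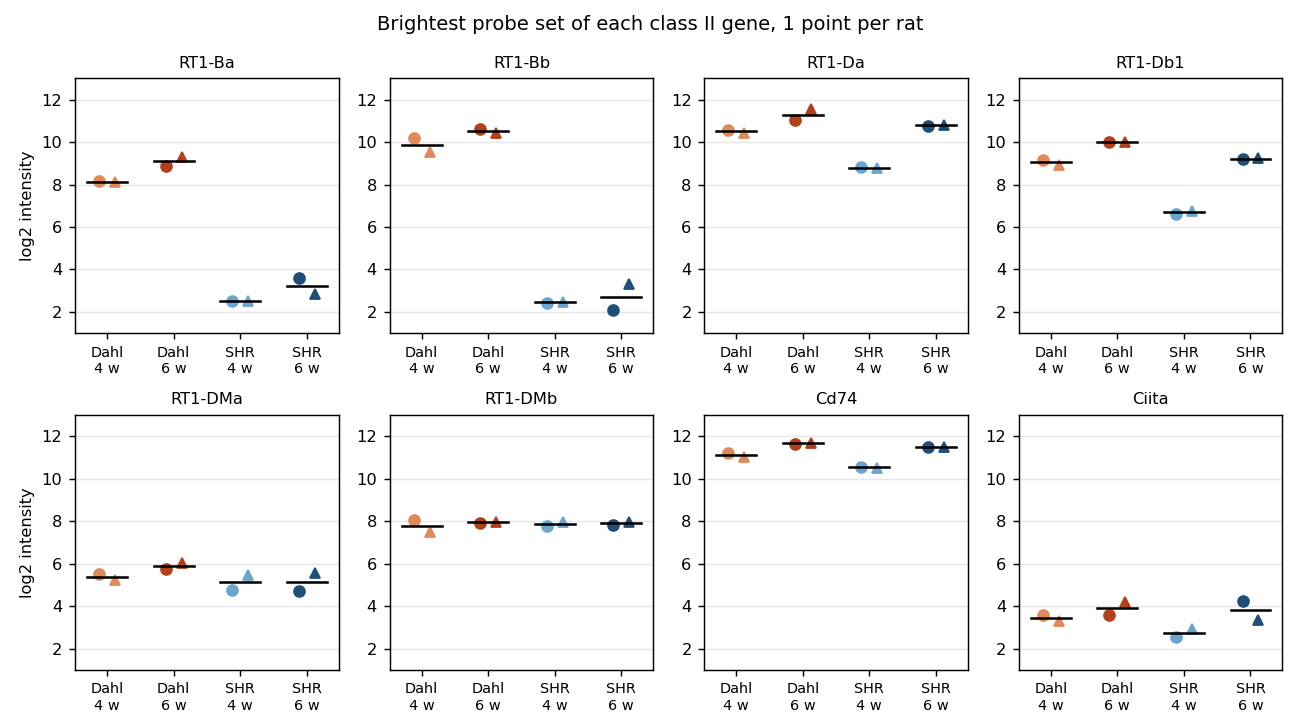
Log2 intensity (vertical axis) of the main probe set of each of the 8 class II genes in Dahl and SHR rats at 4 and 6 weeks. Points are rats (circle, replicate 1; triangle, replicate 2) and bars are means of 2. RT1-Ba and RT1-Bb separate the strains at both ages, RT1-Da, RT1-Db1 and Cd74 are lowest in 4-week-old SHR rats, and the strains overlap for the DM genes.

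The other probe sets of RT1-Ba and RT1-Bb did not show the same strain as the higher. A second RT1-Ba probe set, 1377334_at, read 3.17 and 3.08 in 4-week-old and 3.11 and 3.01 in 6-week-old Dahl rats. In SHR rats it read 6.21 and 6.32 at 4 weeks and 9.25 and 9.41 at 6 weeks. Here every SHR rat was above every Dahl rat, and the difference, Dahl minus SHR, was -4.70 ± 0.06 (SE), with -3.14 at 4 weeks and -6.26 at 6 weeks. The Dahl values lay between the 37.0 and 39.3 percentiles, again in the dim range. The choice of main probe set rested on means over the 8 arrays of 5.74 for 1370822_at and 5.44 for 1377334_at, so the reverse order of these close means would have turned the sign given for the gene. The second RT1-Bb probe set, 1371065_at, was dim in both strains, at 3.25 to 3.64 in Dahl and 3.72 to 4.39 in SHR rats, a difference of -0.61 ± 0.11 (SE).

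Such opposite readings were not seen for RT1-Db1, whose probe sets were both higher in Dahl rats, and the remaining extra probe sets were dim. The other RT1-Ba probe sets, 1392334_at and 1381593_x_at, stayed between 1.61 and 2.09 on all arrays, and a further Ciita probe set, 1369214_a_at, between 2.18 and 2.51. In 5 of the 6 probe sets that were not the main choice every SHR value lay above every Dahl value. That pattern was present in 42.1% of all probe sets, so the pattern alone says little of these 5. Their sizes differed, with -4.70 for 1377334_at and -0.61 to -0.02 for the others.

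**Figure D2:**
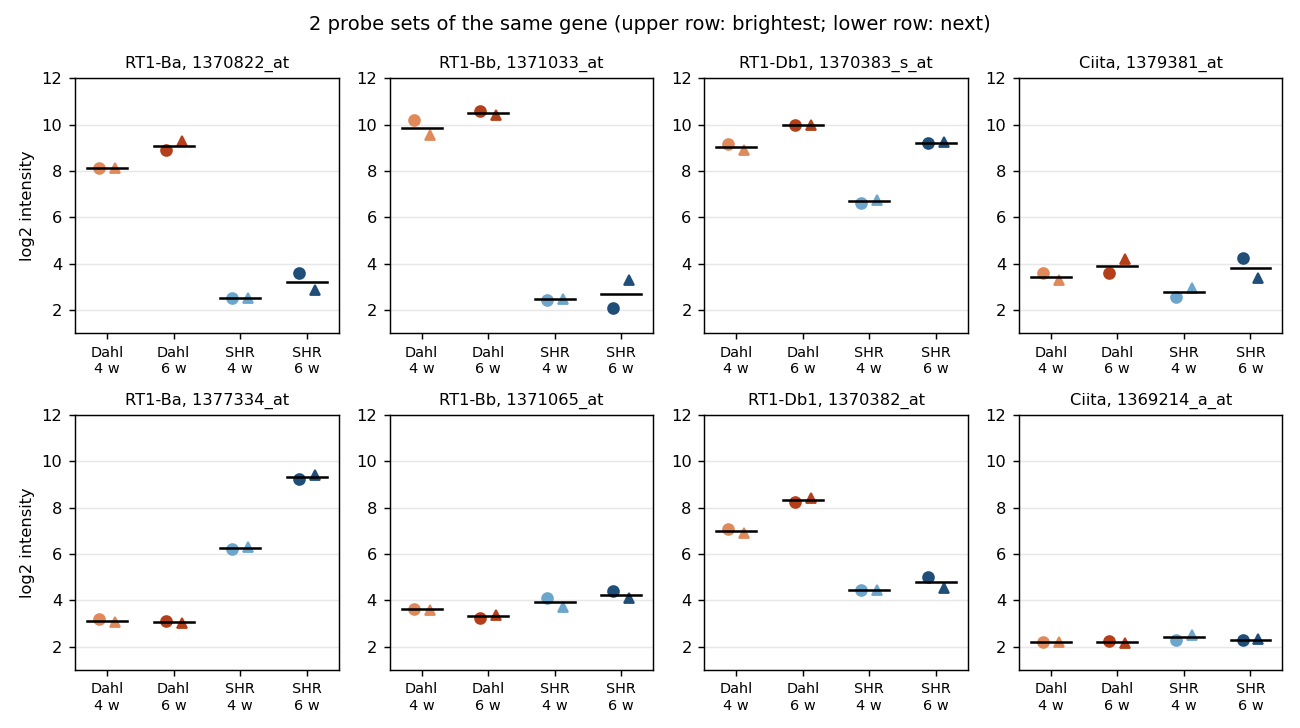
Log2 intensity of the 2 brightest probe sets of each gene with more than 1, in each rat, by strain and age. The 2 bright RT1-Ba probe sets show opposite strains as the higher, with 1377334_at at 9.25 and 9.41 in 6-week-old SHR rats and 3.11 and 3.01 in 6-week-old Dahl rats.

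The RT1-D chains were expressed in both strains, and with their main probe sets the strain gap was wider at 4 than at 6 weeks. RT1-Da, the alpha chain, has a single probe set, 1370883_at, which read 10.56 and 10.44 in 4-week-old and 11.03 and 11.54 in 6-week-old Dahl rats. In SHR rats it read 8.82 and 8.76 at 4 weeks and 10.78 and 10.81 at 6 weeks. The order of the group means was Dahl at 6 weeks, SHR at 6 weeks, Dahl at 4 weeks and SHR at 4 weeks, with no overlap between neighbours. The strain difference was 1.71 at 4 weeks and 0.48 at 6 weeks (SE 0.17 each).

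RT1-Db1, the beta chain, had the same order of groups with its main probe set, 1370383_s_at. The values were 9.16 and 8.93 in 4-week-old and 9.99 and 9.99 in 6-week-old Dahl rats, and 6.61 and 6.75 in 4-week-old and 9.20 and 9.24 in 6-week-old SHR rats. The strain difference was 2.36 at 4 weeks and 0.77 at 6 weeks (SE 0.09 each). Names that end in _s_at mark probes shared by several transcripts, and the near-identical RT1-Db2 may contribute, so the gene behind this signal is uncertain. A second RT1-Db1 probe set, 1370382_at, read 7.07 and 6.91, then 8.26 and 8.43 in Dahl rats at 4 and 6 weeks, and 4.45 and 4.45, then 5.01 and 4.53 in SHR rats. With it the strains did not overlap and the gap was wider at 6 weeks (3.57) than at 4 weeks (2.54), the reverse of the main probe set.

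Cd74, the invariant chain, followed the RT1-D chains in a narrower range. Its probe set read 11.22 and 11.02 in 4-week-old and 11.64 and 11.70 in 6-week-old Dahl rats. In SHR rats it read 10.57 and 10.52 at 4 weeks and 11.51 and 11.50 at 6 weeks. The 4-week-old SHR rats were the lowest group, and no neighbouring groups overlapped. The strain difference was 0.58 at 4 weeks and 0.16 at 6 weeks (SE 0.07 each).

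The peptide exchange genes overlapped between the strains. RT1-DMb read 7.50 to 8.07 in Dahl and 7.79 to 7.96 in SHR rats, a difference of -0.02 ± 0.14 (SE). RT1-DMa read 5.23 to 6.03 in Dahl and 4.73 to 5.56 in SHR rats, a difference of 0.50 ± 0.27 (SE). Ciita, the coactivator, read 3.58, 3.30, 3.60 and 4.20 in Dahl rats and 2.57, 2.94, 4.23 and 3.36 in SHR rats, with 4 weeks before 6 weeks. Its difference of 0.39 ± 0.26 (SE) was within the spread of the rats, and the signal was low on all arrays. Over the 8 genes, each with its main probe set, the median strain difference was 0.80, with 7 above 0. The median over all probe sets was -0.05. The genes were chosen on this difference, so the gap between these medians cannot be told apart from that choice and is no test. RT1-Ba counts as above 0 here, although its second probe set gave -4.70.

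The change with age was tested by limma over all probe sets. The same 8 arrays gave both this change and the strain difference on which the genes were chosen, so the age tests are not independent of that choice. In SHR rats, RT1-Db1, RT1-Da and Cd74 rose between 4 and 6 weeks. RT1-Db1 (1370383_s_at) rose 5.79-fold, by 2.53 ± 0.09 on the log2 scale (SE, adjusted p = 0.00300 by limma). RT1-Da rose 4.01-fold, by 2.01 ± 0.17 (SE, limma adjusted p = 0.0165), and Cd74 1.95-fold, by 0.97 ± 0.07 (SE, limma adjusted p = 0.0130). These 3 of 8 genes compare with 1.50% of all probe sets called higher in the same contrast, and the median of the 8 genes was 0.83 against -0.01 over all probe sets. Of the further probe sets, 1377334_at for RT1-Ba rose 8.36-fold, by 3.06 ± 0.08 (SE, limma adjusted p = 0.00300).

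The remaining genes did not pass in SHR rats. Ciita differed by 1.04, with a 95% interval of 0.09 to 2.00 and a limma adjusted p of 0.285, RT1-Ba by 0.69 with its main probe set (limma adjusted p = 0.324) and RT1-Bb by 0.25 (interval -0.89 to 1.39). RT1-DMb differed by 0.02, with an interval of -0.48 to 0.52, and RT1-DMa by 0.02, with an interval of -0.95 to 1.00. The second RT1-Db1 probe set differed by 0.33 (limma adjusted p = 0.508), so the 2 probe sets of RT1-Db1 gave different sizes.

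The RT1-Db1 call held without each of the 8 arrays in turn, at limma adjusted p from 0.0113 to 0.0423, and so did that of 1377334_at, from 0.00889 to 0.0246. The RT1-Da call was lost without any single one of the 4 SHR arrays (limma adjusted p up to 0.0975), and the Cd74 call without replicate 2 at 4 weeks or either replicate at 6 weeks (up to 0.0854). A group left with 1 rat was assumed to vary like the others.

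**Figure D3:**
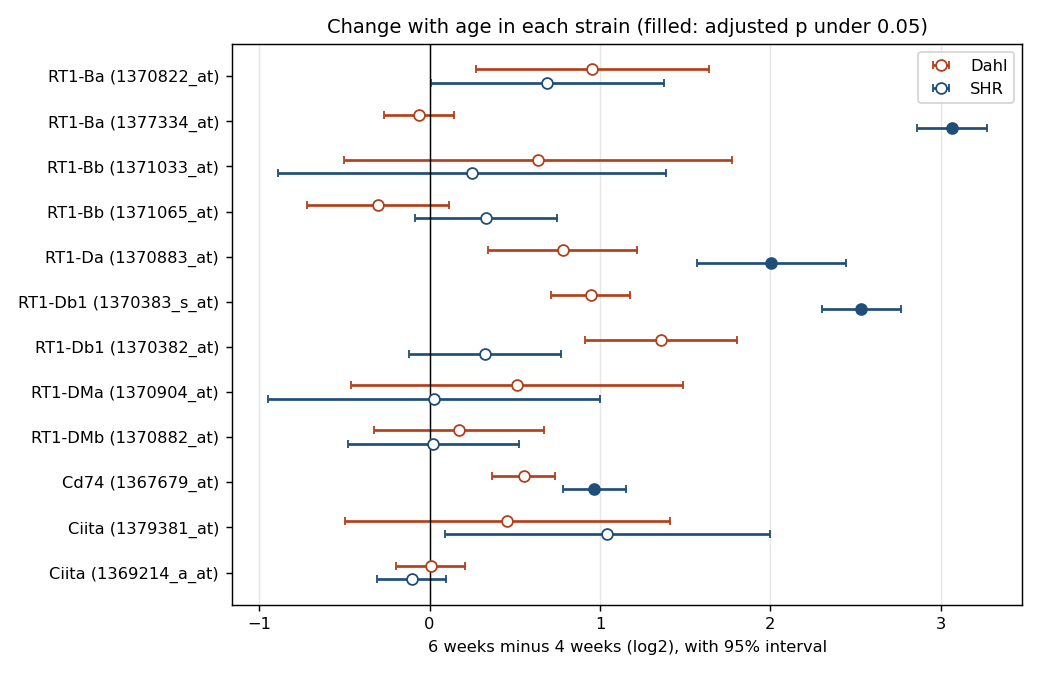
Change from 4 to 6 weeks (log2, 6 weeks minus 4 weeks) of the class II probe sets in Dahl and in SHR rats. In SHR rats RT1-Db1, RT1-Da, Cd74 and the RT1-Ba probe set 1377334_at passed an adjusted p of 0.05 by limma, and in Dahl rats none did.

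In Dahl rats no class II gene passed the test for age, where 0.0805% of all probe sets did in either direction, although all 8 differences were above 0 with a median of 0.59 against -0.01 over all probe sets. At an unadjusted limma p under 0.05 there were 4 genes, beside 8.76% of all probe sets. RT1-Db1 differed by 0.95 (limma adjusted p = 0.0828), Cd74 by 0.55 (0.141), RT1-Da by 0.78 (0.309) and RT1-Ba by 0.96 (0.416). RT1-Da passed only when replicate 1 of the 6-week-old Dahl rats was left out (limma adjusted p = 0.0174).

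Whether the age change differed between the strains was tested as an interaction, which draws on the same 8 arrays as the age tests. RT1-Db1 (1370383_s_at) passed, at -1.59 ± 0.13 (SE, limma adjusted p = 0.0298), a smaller change in Dahl than in SHR rats. The RT1-Ba probe set 1377334_at gave -3.12 ± 0.11 (SE, limma adjusted p = 0.00615). It was dim in Dahl rats at both ages, where it changed by -0.06. The value therefore comes almost wholly from its change in SHR rats. Whether this probe set can read the transcript of Dahl rats was not tested. The main RT1-Ba probe set, which was bright in Dahl rats and dim in SHR rats, gave 0.27 (limma adjusted p = 0.936). Of the 8 main probe sets 1 passed, beside 0.519% of all probe sets. The second RT1-Db1 probe set went the other way, by 1.03 ± 0.24 (SE), and did not pass (limma adjusted p = 0.212). RT1-Da differed by -1.22 (limma adjusted p = 0.155), which passed without either 6-week-old Dahl rat (0.0391 and 0.0326), and Cd74 by -0.41 (0.227). The RT1-Db1 call held without 3 of the 8 arrays, each from Dahl rats, and was lost without the other Dahl array or any SHR array (limma adjusted p up to 0.119). That of 1377334_at held without each of the 8, at limma adjusted p from 0.0154 to 0.0472.

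The other genes of the class II pathway were counted from a list of 34, of which 30 had a probe set of their own. Over both ages 9 were higher and 4 lower in Dahl rats, beside 10.6% of all probe sets higher and 24.2% lower. The share of all probe sets that was lower depended on the scaling, at 7.99% after quantile normalization and 39.9% after median centring, with 3 and 6 of the 30 lower. Without replicate 2 of the 6-week-old SHR rats 4 were higher, and without replicate 2 of the 4-week-old Dahl rats 5, with 0 lower in each case. The strain calls of Creb1, Ctss, Cd40 and Cd83 held without each of the 8 arrays, and the other calls of this list were lost without at least 1 of them (limma adjusted p up to 0.130).

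Among the factors that bind the X and Y boxes, Creb1 was higher by 1.75 ± 0.18 (SE, limma adjusted p = 0.00837) and Rfx5 by 0.66 ± 0.09 (SE, limma adjusted p = 0.0125). Creb1 read 7.94 to 8.60 in Dahl and 6.39 to 6.78 in SHR rats. Rfxank, another RFX subunit, was lower by 0.52 and the coactivator Ep300 lower by 0.23 (limma adjusted p = 0.0277 and 0.0304), and the 6 others of the 10 did not pass.

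Of 8 genes that cut the invariant chain, prepare peptide or remove class II molecules, Ctss alone passed between the strains. Ctss, the cathepsin that degrades the invariant chain, read 7.02 and 6.86 in 4-week-old and 8.03 and 8.28 in 6-week-old Dahl rats, and 5.19 and 5.02 in 4-week-old and 7.27 and 7.18 in 6-week-old SHR rats. It was higher in Dahl rats by 1.38 ± 0.08 (SE, limma adjusted p = 0.00328) and rose with age in SHR rats by 2.12 ± 0.11 (SE, limma adjusted p = 0.00696).

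In the interferon gamma group Irf1, a factor induced by interferon, was higher in Dahl rats by 1.44 ± 0.38 (SE, limma adjusted p = 0.0432), with replicate 2 of the 6-week-old Dahl rats, at 9.27, apart from the other Dahl rats at 7.62 to 7.78. Both receptor chains were higher, Ifngr2 by 0.53 and Ifngr1 by 0.39 (limma adjusted p = 0.0216 and 0.0325). Ifng itself was among the dimmest 25% of probe sets on all arrays, as was the costimulatory gene Cd80, and both were lower by 0.07 (limma adjusted p = 0.0325 and 0.0472), near the median of all probe sets. Of the costimulatory genes, Cd83 was higher by 1.46 (limma adjusted p = 0.00354), Cd40 by 1.36 (0.00893) and the adhesion molecule Icam1 by 0.71 (0.0177). Cd83 also rose with age in SHR rats, by 1.95 ± 0.12 (SE, limma adjusted p = 0.00918). Together with Ctss these were the 2 of 30 pathway genes that did, beside 1.50% of all probe sets. The age call of Ctss was lost without replicate 1 of the 6-week-old SHR rats (limma adjusted p = 0.0566), and that of Cd83 without either rat of that group (up to 0.0538).

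Macrophage markers moved beside the class II genes. Of 18 markers, 11 were higher and 2 lower in Dahl rats over both ages, with a median difference of 0.98. Of all probe sets, 10.6% were called higher and 24.2% lower. The higher ones included Aif1, a marker of activated macrophages, by 1.90, the complement chain C1qa by 1.46, the receptor for colony stimulating factor Csf1r by 1.31 and C1qc by 1.22, and these 4 calls held without each of the 8 arrays (limma adjusted p up to 0.0446). At 4 weeks 10 were higher (5.63% of all probe sets were) and at 6 weeks 0 by limma (1.65%). At 6 weeks 6 had an unadjusted limma p under 0.05, and the share of all probe sets at that p is not given here. Mrc1, the mannose receptor, went the other way, with 4.63 to 5.64 in Dahl and 6.51 to 7.27 in SHR rats, a difference of -1.76 ± 0.21 (SE, limma adjusted p = 0.0106). Mrc1 was chosen for mention after its values were seen.

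Markers of the glomerulus itself were also higher in Dahl rats. The strain counts here stand beside 10.6% of all probe sets called higher. All 4 mesangial markers passed, with the intermediate filament Des higher by 1.68, the smooth muscle actin Acta2 by 0.82, the integrin Itga8 by 0.74 and the growth factor receptor Pdgfrb by 0.59 (limma adjusted p from 0.00832 to 0.0318), though the call of Pdgfrb held without only 2 of the 8 arrays. Their summed linear intensity was 793 to 828 in 4-week-old and 882 to 995 in 6-week-old SHR rats, and 1378 to 1602 in 4-week-old and 1607 to 1934 in 6-week-old Dahl rats. Of 5 endothelial markers 3 were higher (Ehd3 by 0.85, Tie1 by 0.55 and Emcn by 0.30), and of 5 podocyte markers 2 (Ptpro by 0.69 and Synpo by 0.59), but each of these 5 calls was lost without at least 3 of the 8 arrays. In the age test in SHR rats 0 of these markers passed by limma, beside 1.50% of all probe sets called higher. At an unadjusted limma p under 0.05 there were 2 podocyte markers, beside 15.2% of all probe sets. The part of these markers in the class II values was not tested.

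Macrophage markers also rose with age in SHR rats. There 8 of 18 macrophage markers rose, beside 1.50% of all probe sets called higher. They included Aif1 by 3.51, C1qa by 3.32, C1qc by 2.67 and Csf1r by 2.13 (limma adjusted p from 0.00696 to 0.0130), and the median over the 18 was 2.06. In Dahl rats 0 of 18 passed by limma, with 10 at an unadjusted p under 0.05 (8.76% of all probe sets) and a median of 0.73, and the interaction called 0, again with 10 at an unadjusted p under 0.05 (10.97% of all probe sets). The count was 0 without replicate 1 and 1 without replicate 2 of the 6-week-old SHR rats, and 5 without replicate 2 of the 4-week-old SHR rats or either 4-week-old Dahl rat. The summed linear intensity of the 18 markers was 932 to 1193 in 4-week-old SHR rats, 2515 to 2784 in 4-week-old Dahl rats, 3560 to 3809 in 6-week-old SHR rats and 4136 to 5641 in 6-week-old Dahl rats. The groups came in the same order for RT1-Da, RT1-Db1 and Cd74, with 4-week-old SHR rats the lowest. Cx3cr1, Ccr2 and Itgam, which mark monocytes and macrophages, were among the dimmest 25% on all arrays. The part of the macrophage markers in the class II values was not tested.

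**Figure D4:**
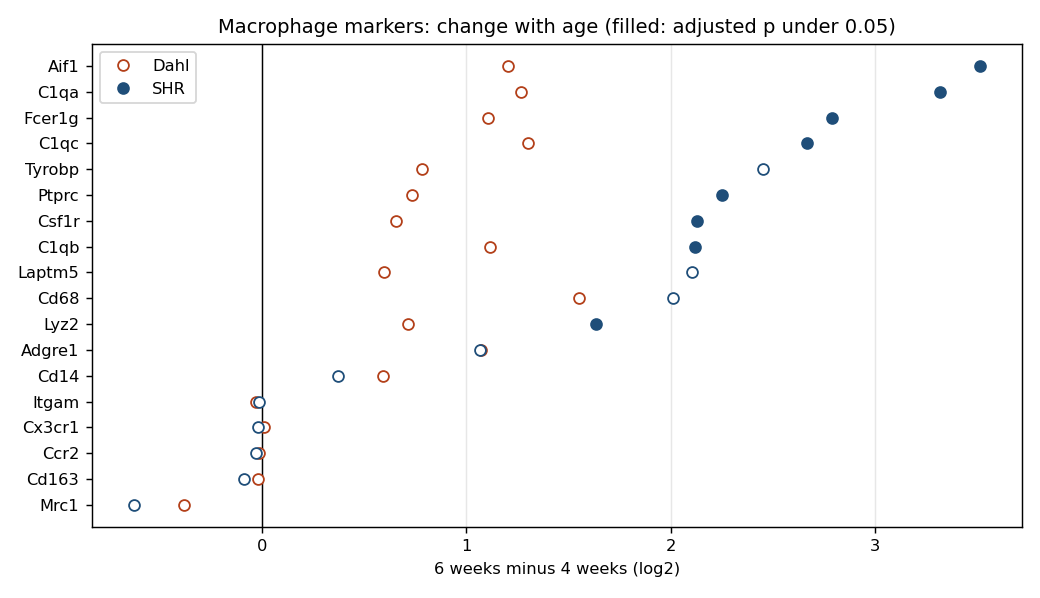
Change from 4 to 6 weeks (log2) of the 18 macrophage markers in Dahl and SHR rats, with filled points at an adjusted p under 0.05 by limma. In SHR rats 8 markers passed, led by Aif1 at 3.51, and in Dahl rats none did.

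Other class II-bearing cells and their partners gave weak signals. The 5 measured dendritic cell markers included 3 among the dimmest 25% on all arrays (Batf3, Clec9a and Flt3), and their summed intensity ran from 27.4 to 34.6 in 4-week-old SHR rats and from 42.6 to 75.1 elsewhere. Irf8, a factor of dendritic cells and macrophages, was higher in Dahl rats by 1.12 (limma adjusted p = 0.0405), and the integrin Itgax rose with age in SHR rats by 2.42 (0.0483), but each call held without only 2 of the 8 arrays. The B cell genes Cd79b and Ms4a1 were dim on all arrays, and the summed intensity of the 3 measured B cell genes stayed between 16.2 and 18.4. Among T cell genes Cd8a, Cd3g and Cd3d were dim, and Cd3e was lower in Dahl rats by 0.44 (limma adjusted p = 0.00811). In all, 4 of the 6 T cell genes were called lower, beside 24.2% of all probe sets. The dim ones were lower by about 0.06 each, near the median of -0.05 over all probe sets. The sum of the 6 ran from 49.3 to 57.0 in 4-week-old SHR rats and from 60.1 to 105.7 elsewhere, and it followed Lck, a T cell kinase, which averaged 3.92 in 4-week-old and 5.50 in 6-week-old SHR rats and 5.19 and 5.84 in Dahl rats and passed neither the strain test nor the age test (limma adjusted p = 0.105 between strains and 0.202 for age in SHR). The part of these cells in the class II values was not tested.

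Genes whose profile over the 8 arrays was most like that of a class II gene were ranked by the root mean square difference of log2 values after each gene was centred on its mean, among the 14209 genes outside the class II set. Nearest to Cd74 were B2m, the light chain of MHC class I, at 0.080, then Jun at 0.094, Sp110 at 0.100, Pld4 at 0.105 and Psme1, an interferon-induced proteasome activator, at 0.114. B2m averaged 13.13 and 13.55 in Dahl and 12.45 and 13.40 in SHR rats at 4 and 6 weeks. Nearest to RT1-Bb were Hhip, a hedgehog-binding protein, at 1.29, then Ogn at 1.70, Mamdc2 at 1.72, Myom2 at 1.73 and Hjv at 1.76, while RT1-Ba within the set lay at 1.09. Hhip averaged 7.84 and 7.89 in Dahl and 2.55 and 2.69 in SHR rats. These likenesses are descriptions over 8 arrays that share strain and age.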

How the data were processed

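Glomerular RNA of 4 Dahl and 4 SHR rats was hybridised to 8 arrays. The deposited values are log2 intensities of 31099 probe sets, normalised by the authors. RMA and GCRMA are named in the submitters' processing notes, without saying which of them was used. After 57 control rows were left out, 31042 probe sets remained, of which 20826 had 1 gene in the platform annotation, 436 several and 9780 none. Groups of strain and age were fitted in limma 3.58.1 (R 4.3.3) with 4 residual degrees of freedom, and p-values were adjusted by Benjamini-Hochberg over all probe sets with a threshold of 0.05. The fit was tested on simulated data. The genes and lists were chosen with earlier results of these data known. Named were the 8 genes with all their probe sets, up to 4 genes per list with the smallest strain p, and the 5 genes nearest to Cd74 and to RT1-Bb. Genes named for age or for direction were drawn from the lists. Alternatives covered quantile normalization, median centring, the variance model, a replicate block, a filter on dim probe sets, the choice of probe set, the methods' t-test and leaving out each array. The number of arrays limits the precision.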

Additional observations from a re-analysis of the deposited data

Results flagged for a closer look

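For 2 class II probe sets the test of whether the change from 4 to 6 weeks differed between the strains passed. The genes were chosen on strain differences in the same arrays, so this test is not independent of that choice. For RT1-Db1 (1370383_s_at) the Dahl minus SHR difference of the age change was -1.59 on the log2 scale (limma adjusted p = 0.0298), and the second probe set of the gene gave 1.03 (0.212). For the RT1-Ba probe set 1377334_at it was -3.12 (limma adjusted p = 0.00615), and the main probe set of the gene gave 0.27 (0.936). Since 1377334_at read only 3.01 to 3.17 in Dahl rats, its value comes almost wholly from the change in SHR rats. Whether it can read the transcript of Dahl rats was not tested. Groups of 2 rats were too small to look for rats that stand apart.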

How the results depend on the processing

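With the dimmest probe set of each gene the strain differences of RT1-Ba and RT1-Bb were -0.024 and -0.61. The RT1-Db1 difference in age change was then 1.03. The dimmest RT1-Ba probe set, 1381593_x_at, read only 1.61 to 1.64 on all arrays, so its sign says little. The RT1-Ba probe set 1377334_at, at -4.70, was not part of this setting. With the dimmest probe sets 1 gene had all Dahl above all SHR values in place of 2, and 0 passed the interaction. The opposite order was seen in 3 genes in place of 0, beside 42.1% of all probe sets. Replicate numbers did not pair the rats (correlations of deviations -0.23 to 0.24 between groups). With the replicate number as a block the interaction count was 0 (RT1-Db1 adjusted p = 0.0815), pathway genes lower 2, cell markers higher 6 and lower 3, and macrophage markers rising with age in SHR 4. Of all probe sets, the strain contrast called 10787, 4740 after quantile normalization, 15891 after median centring, 15164 with an intensity trend, 5598 with the block and 4776 of the brighter ones. Age in SHR called 751 (360 with the block, 1205 of the brighter ones), age in Dahl 25 (3 and 47) and the interaction 161 (31 with the block), and leaving out each array gave 2286 to 11471, 64 to 940, 0 to 1043 and 7 to 540. Cell markers over the macrophage, dendritic, B and T cell lists were 12 higher and 7 lower in Dahl rats, 7 and 2 after quantile normalization, 12 lower after median centring, 13 lower with an intensity trend and 1 lower among the brighter probe sets, where 2 pathway genes were lower. The methods' t-test, with both ages of a strain pooled, called 4 pathway genes higher, and 1 cell marker higher and 13 lower. The share of all probe sets that it called is not given here, so these counts have no background to be read against. Leaving out each array gave 1 to 3 class II genes rising in SHR, 0 to 1 in Dahl, 0 to 2 in the interaction, pathway counts of 4 to 9 higher and 0 to 5 lower, marker counts of 5 to 11 higher and 2 to 7 lower, and 0 to 8 macrophage markers rising. The macrophage count in SHR and the settings for 1377334_at were added after the data were seen. The cause of these moves was not tested.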
